A study of Mus musculus with 48 samples.

Results

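The data described here ask whether prenatal stress (PS) has a different effect on hippocampal gene expression in offspring labelled 5-Htt+/- than in offspring labelled 5-Htt+/+. 5-Htt, also written Slc6a4, encodes the serotonin transporter, the protein that returns released serotonin into nerve terminals. The contrast used all 48 of the 48 libraries of the series and was the difference of 2 differences, the PS minus control (C) difference in 5-Htt+/- minus the PS minus C difference in 5-Htt+/+. The mice were female C57BL/6 offspring of 3 months of age, from wildtype dams mated with males carrying 1 transporter-deficient allele. PS dams were restrained in 3 sessions per day from embryonic day 13 to 17, whereas C dams were left undisturbed. PS offspring were divided by the study on their performance in a test of sociability, into socially affected (SA, called susceptible in the labels) and socially unaffected (SU, called resilient) animals, and both were pooled here with equal weight. The groups were 5-Htt+/+ C (8 libraries), 5-Htt+/+ PS (16 libraries, 8 SA and 8 SU), 5-Htt+/- C (7 libraries) and 5-Htt+/- PS (17 libraries, 8 SA and 9 SU). All animals, controls included, had gone through a battery of behavioural tests and a restraint test with blood sampling before the hippocampi of both sides were collected. Each library was taken as 1 animal. The labels do not name the litter, so that p-values measure only the spread between these libraries and may be too small where animals shared a dam. The tissue is a whole hippocampus, so that fewer cells of a type and less RNA per cell cannot be told apart.

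The hippocampus is rich in receptors for corticosterone, the stress hormone that rodents release from the adrenal gland. Once bound by hormone, the glucocorticoid receptor moves to the nucleus, binds DNA at glucocorticoid response elements and switches on a set of genes that includes Sgk1, Fkbp5, Per1, Tsc22d3 and the metallothioneins. The levels of these transcripts follow the hormone in the preceding hours. The serotonin transporter sets how long serotonin acts on its receptors, and serotonin in turn takes part in the control of the stress axis, which is why transporter deficiency and early stress have been studied together.

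The targeted gene was examined first, since it checks the labels. Slc6a4 (chr11:76998603-77032340, GRCm38, + strand) was low in 5-Htt+/+ C, with a lowest, median and highest library of 0, 0.103 and 0.253 CPM (the reads of a gene scaled to the library's upper-quartile adjusted size), and in 5-Htt+/+ PS, with 0, 0.147 and 0.261 CPM. In the libraries labelled 5-Htt+/- it reached 13.6, 15.5 and 15.9 CPM in C and 12.8, 14.8 and 17.0 CPM in PS. The libraries labelled as transporter-deficient thus held the higher level, without overlap, and the gene goes against the direction of its label. Gene-wise counts do not show which part of the gene gave these reads. The groups are therefore named below as the labels give them, and every direction drawn between 5-Htt+/+ and 5-Htt+/- rests on those labels. The PS by genotype estimate for Slc6a4 itself was -0.31 in log2 (95% interval -0.86 to 0.23, adjusted p = 0.896), so that the difference between the labels was of similar size in C and PS libraries.

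Total counts ranged from 16488405 to 38213754 per library (median 24125647.5), and the lowest and highest libraries of the 4 groups overlapped. Of the 48440 genes of the table, 31208 were tested. The share of reads from the mitochondrial genome was 3.43 to 5.56% in 5-Htt+/- C, 4.41 to 5.85% in 5-Htt+/- PS, 4.45 to 5.95% in 5-Htt+/+ C and 4.67 to 5.51% in 5-Htt+/+ PS. The first principal component held 7.63% of the variance, and 3 of the 6 libraries with its lowest scores were 5-Htt+/- C. The libraries also split by the presence of reads at small nucleolar RNAs of the Snord116 type, which 4 of 7 5-Htt+/- C, 10 of 17 5-Htt+/- PS, 5 of 8 5-Htt+/+ C and 12 of 16 5-Htt+/+ PS libraries had. The summed CPM of choroid plexus markers ranged from 30.9 to 993, with medians of 54.4 in 5-Htt+/- C, 295 in 5-Htt+/- PS, 52.9 in 5-Htt+/+ C and 60.8 in 5-Htt+/+ PS (436 in SA and 39.0 in SU).

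The genes to which the description below returns most often are targets of the glucocorticoid receptor. The 250 bases before the annotated start of 4 of them are printed to show which response elements lie there, read from RefSeq on GRCm38.p6. Capitals mark matches, on either strand, to the letters GNACA and TGTNC with NNN between them (glucocorticoid response element), TGCACNC or TGCGCNC (core of the metal response element, which the metallothionein genes carry) and GGGAN followed by TTTCC (kappaB site, bound by the NF-kappaB factors that the product of Nfkbia holds back).
Sgk1, chr10:21993640-21993889, + strand, 1 of 6 annotated starts: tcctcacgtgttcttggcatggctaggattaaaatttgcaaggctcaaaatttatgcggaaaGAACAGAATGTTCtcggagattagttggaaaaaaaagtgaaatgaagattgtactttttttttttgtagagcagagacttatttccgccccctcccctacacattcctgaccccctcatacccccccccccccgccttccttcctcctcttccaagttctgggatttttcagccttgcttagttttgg
Mt1, chr8:94178839-94179088, + strand: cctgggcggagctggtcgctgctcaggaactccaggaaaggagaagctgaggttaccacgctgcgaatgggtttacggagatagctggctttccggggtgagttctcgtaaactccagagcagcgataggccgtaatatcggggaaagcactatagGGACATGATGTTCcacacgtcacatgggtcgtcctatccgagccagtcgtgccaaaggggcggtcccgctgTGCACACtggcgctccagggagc
Mt2, chr8:94172368-94172617, + strand: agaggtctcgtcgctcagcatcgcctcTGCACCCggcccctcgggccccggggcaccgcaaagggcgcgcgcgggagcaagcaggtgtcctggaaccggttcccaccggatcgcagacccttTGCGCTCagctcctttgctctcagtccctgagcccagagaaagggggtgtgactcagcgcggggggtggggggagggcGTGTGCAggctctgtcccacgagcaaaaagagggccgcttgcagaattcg
Nfkbia, chr12:55492648-55492897, - strand: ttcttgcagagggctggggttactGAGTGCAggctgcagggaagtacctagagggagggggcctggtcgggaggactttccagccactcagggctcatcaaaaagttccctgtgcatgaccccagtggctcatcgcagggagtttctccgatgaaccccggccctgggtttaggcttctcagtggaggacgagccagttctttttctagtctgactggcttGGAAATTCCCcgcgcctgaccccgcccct

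The glucocorticoid response element letters were found in the Sgk1 window from 188 bases before the start and in the Mt1 window from 94 bases before it. Of the 6 annotated starts of Sgk1, the printed one was chosen because only its window held these letters. Their presence in that window was therefore fixed by the choice. The windows of 23 of the 25 genes of the glucocorticoid list could be matched, 35 windows in all. The letters were present in 3 of the 35 windows (8.57%; Sgk1, Mt1 and Map3k6) and in 0.387% of all 32851 windows of this length. The A form of the metal response core was present in 4 (11.4%) against 10.4% of all windows, the G form in 5 (14.3%) against 12.5%, and the kappaB letters in 1 (2.86%; Nfkbia) against 0.356%. A match of letters is a description of the sequence only, since response elements also act from far outside such a window.

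No gene passed the threshold in the PS by genotype interaction. With edgeR's quasi-likelihood test and Benjamini-Hochberg adjustment over all genes, 0 of 31208 genes (0%) had an adjusted p under 0.05, and the smallest adjusted p was 0.695. The count was also 0 with DESeq2 (smallest adjusted p = 0.15) and with edgeR's likelihood ratio test (0.333). At an unadjusted p under 0.05 there were 1660 genes (5.32%), 749 higher (2.4% of all genes tested) and 911 lower (2.92%), where 1560 would be present with uniform p-values. This number moved to 2869 without 5-Htt+/- C replicate 4 and to 2862 without 5-Htt+/+ C replicate 7, and the number of genes past the adjusted threshold was 0 without any single library. The median log2 interaction over all genes was -0.00249. Estimates for single genes given below are therefore differences that were not called, and their intervals are printed so that their size can be read.

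Both PS effects that make up the interaction were called for different numbers of genes. In libraries labelled 5-Htt+/-, 33 genes passed, of which 30 fell (0.0961% of all genes tested) and 3 rose (0.00961%), and 5106 genes (16.4%) had an unadjusted p under 0.05. In libraries labelled 5-Htt+/+, 7 genes passed, all of them lower in PS (0.0224%), and 773 genes (2.48%) had an unadjusted p under 0.05. A difference in the number of calls is not a test of the difference, which is the interaction itself and was called for 0 genes. For the 33 genes the median log2 PS effect was -0.383 in 5-Htt+/- and -0.0594 in 5-Htt+/+, where 25 were lower and 8 higher in PS. Their median interaction was -0.324, with 0 of 33 intervals including 0; the interaction shares the 5-Htt+/- libraries on which these genes were chosen. The same genes had a median difference between the labels of 0.268 in C and of -0.0328 in PS. Both differences use the 5-Htt+/- libraries on which these genes were chosen, so that no conclusion is drawn from them.

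The count of 33 depended on single libraries. It was 9 without 5-Htt+/- C replicate 3 (7 of the 33 among them) and 1163 without 5-Htt+/- C replicate 4 (33 of the 33 among them). It was also over 1.5 times lower or higher without 5-Htt+/- C replicates 1 (18), 2 (121) and 7 (16), without 5-Htt+/- SU replicates 1 (15), 6 (13), 7 (12) and 9 (15), without 5-Htt+/- SA replicates 1 (14), 2 (85), 3 (13), 4 (21) and 7 (67), and without 5-Htt+/+ C replicate 7 (58). It was 3 when the 6 libraries lowest on the first component were removed. Sgk1, Mt1, Nfkbia, Pim3, Gm13335 and RP23-185B22.1 were called in all 48 fits that left out 1 library.

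Which of the 4 group means stood apart was also counted over genes. For the 1660 genes below an unadjusted p of 0.05, the group mean farthest from the mean of the other groups was 5-Htt+/- C in 1262 (76%), 5-Htt+/+ C in 243 (14.6%), 5-Htt+/- PS in 95 (5.72%) and 5-Htt+/+ PS in 60 (3.61%). Over all 31208 genes it was 5-Htt+/- C in 16999 (54.5%), 5-Htt+/+ C in 5144 (16.5%), 5-Htt+/+ PS in 4935 (15.8%) and 5-Htt+/- PS in 4130 (13.2%). The C groups hold fewer libraries (7 in 5-Htt+/- and 8 in 5-Htt+/+) than the PS groups (17 and 16). Means of fewer libraries vary more, and the part of group size in these shares was not tested.

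Glucocorticoid-induced genes were described first, as the list with 9 members called within 5-Htt+/-. Like the other lists, it was chosen with earlier results of these data known. The counts of its members therefore describe the pattern and do not test it. Of the 25 genes of the list, all tested, 22 had a lower estimate and 3 a higher one in the interaction, with a median of -0.259 in log2 against -0.00249 over all genes. An unadjusted p under 0.05 was reached by 14 genes, all lower, beside the 2.92% of all genes tested, and 0 passed the adjusted threshold. This number was 8 once the 6 libraries lowest on the first component were removed. It was 14 in the libraries with Snord116 reads and 2 in those without them. The class without these reads holds 3 5-Htt+/- C and 0 5-Htt+/+ SA libraries. Within 5-Htt+/-, 9 members fell in PS with an adjusted p under 0.05 (Sgk1, Mt1, Nfkbia, Pim3, Per1, Gadd45g, Mt2, Tsc22d3 and Sdc4), beside 0.0961% of all genes, and the median was -0.31. Within 5-Htt+/+ none passed and the median was -0.0594. The number of members called within 5-Htt+/- was 5 without 5-Htt+/- C replicate 3, 5 without 5-Htt+/- SU replicate 7, 4 with the first component as a term, 1 (Sgk1) when the 6 libraries lowest on it were removed, and 0 in the libraries without Snord116 reads.

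The summed level of the list showed which libraries carried the pattern. It was 811 to 1070 CPM in 5-Htt+/- C (median 897), 701 to 823 CPM in 5-Htt+/- PS (median 745), 708 to 892 CPM in 5-Htt+/+ C (median 778) and 704 to 828 CPM in 5-Htt+/+ PS (median 763). The 5-Htt+/- C group had the highest median, but its lowest library lay below the highest library of each of the other 3 groups. The SA and SU parts of the 5-Htt+/- PS group were alike in this sum, at 701 to 783 CPM in SA and 718 to 823 CPM in SU. Blood was drawn around an acute restraint before tissue collection in all groups, and its part in these levels was not tested. The study measured corticosterone in that blood, over the larger set of animals tested for behaviour. It reported no significant effect of PS, genotype or their interaction on the hormone.

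Sgk1 (chr10:21882184-21999903, + strand) encodes a kinase that is one of the quickest targets of corticosterone in the brain. It measured 60.9, 74.0 and 88.6 CPM (lowest, median and highest library) in 5-Htt+/- C and 41.8, 49.9 and 62.0 CPM in 5-Htt+/- PS. It measured 51.0, 54.2 and 71.1 CPM in 5-Htt+/+ C and 42.8, 51.4 and 62.8 CPM in 5-Htt+/+ PS. In 5-Htt+/-, 16 of 17 PS libraries lay below the lowest C library, whereas in 5-Htt+/+ 8 of 16 did. Sgk1 fell by 0.58 in log2 with PS in 5-Htt+/- (SE 0.08, adjusted p = 3.06e-05). In 5-Htt+/+ the difference was -0.16 (SE 0.08, adjusted p = 1). The interaction estimate was -0.42 (95% interval -0.64 to -0.20, adjusted p = 0.695), -0.48 with SA and -0.36 with SU offspring as the PS group.

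The metallothioneins Mt1 and Mt2 are small cysteine-rich proteins that bind zinc and copper, and both genes respond to metals as well as to glucocorticoids. Mt1 measured 70.0, 79.5 and 134 CPM in 5-Htt+/- C, 51.1, 58.4 and 78.8 CPM in 5-Htt+/- PS, 52.9, 63.3 and 74.2 CPM in 5-Htt+/+ C, and 50.5, 59.4 and 72.3 CPM in 5-Htt+/+ PS. Of the 17 5-Htt+/- PS libraries, 15 lay below the lowest 5-Htt+/- C library. Mt1 fell by 0.51 in log2 in 5-Htt+/- (SE 0.08, adjusted p = 0.0016) and its difference in 5-Htt+/+ was -0.06 (SE 0.08). The interaction was -0.44 (95% interval -0.68 to -0.21, adjusted p = 0.695), and -0.302 without 5-Htt+/- C replicate 3, the library at 134 CPM. Mt2, the neighbour of Mt1 on the chromosome, had medians of 43.6, 33.8, 39.3 and 34.6 CPM in the same order of groups. Its PS effect in 5-Htt+/- was -0.45 (SE 0.09, adjusted p = 0.0305, 0.361 without 5-Htt+/- C replicate 3) and its interaction -0.39 (95% interval -0.66 to -0.12).

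Nfkbia encodes the inhibitor that keeps NF-kappaB in the cytoplasm and is induced by both glucocorticoids and NF-kappaB. It measured 10.2, 12.2 and 15.4 CPM in 5-Htt+/- C and 7.26, 8.61 and 11.6 CPM in 5-Htt+/- PS, against 8.28, 9.29 and 12.8 CPM in 5-Htt+/+ C and 7.54, 9 and 10.7 CPM in 5-Htt+/+ PS. In 5-Htt+/-, 14 of 17 PS libraries were below the lowest C library. It fell by 0.50 in log2 in 5-Htt+/- (SE 0.08, adjusted p = 0.00256), with -0.12 (SE 0.08) in 5-Htt+/+ and an interaction of -0.38 (95% interval -0.62 to -0.14). The median interaction of the 17 NF-kappaB pathway genes was -0.017, and Nfkbia was the only one of them called within 5-Htt+/-.

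Pim3, which encodes a serine/threonine kinase, measured 16.3, 18.7 and 22.7 CPM in 5-Htt+/- C and 11.7, 14.6 and 17.6 CPM in 5-Htt+/- PS, against medians of 16.3 CPM in 5-Htt+/+ C and 15.2 CPM in 5-Htt+/+ PS. It fell by 0.40 in 5-Htt+/- (SE 0.07, adjusted p = 0.0029) and its interaction was -0.31 (95% interval -0.51 to -0.12). Per1, a clock gene with a glucocorticoid-responsive promoter, had medians of 57.5 CPM in 5-Htt+/- C, 47.9 CPM in 5-Htt+/- PS, 50.1 CPM in 5-Htt+/+ C and 46.6 CPM in 5-Htt+/+ PS. It fell by 0.30 in 5-Htt+/- (SE 0.06, adjusted p = 0.0203, 0.156 without 5-Htt+/- C replicate 3), with an interaction of -0.25 (95% interval -0.42 to -0.08). Over the 19 circadian clock genes as a list the median interaction was -0.0154, and Per1 was the member called within 5-Htt+/-.

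Tsc22d3, also known as Gilz and a mediator of the anti-inflammatory action of glucocorticoids, had medians of 58.4 CPM in 5-Htt+/- C, 45.5 CPM in 5-Htt+/- PS, 48.0 CPM in 5-Htt+/+ C and 45.9 CPM in 5-Htt+/+ PS, with an interaction of -0.26 (95% interval -0.49 to -0.03). Gadd45g, a stress-inducible growth arrest gene, measured 6.53, 9.55 and 18.1 CPM in 5-Htt+/- C and 5.82, 6.95 and 9.69 CPM in 5-Htt+/- PS. Its interaction was -0.55 (95% interval -0.87 to -0.23), which became -0.364 without 5-Htt+/- C replicate 3, the library at 18.1 CPM. Sdc4, a cell surface heparan sulfate proteoglycan, measured 47.3, 54.1 and 64.0 CPM in 5-Htt+/- C and 33.6, 44.3 and 55.6 CPM in 5-Htt+/- PS, with an interaction of -0.32 (95% interval -0.52 to -0.13). All 3 genes fell in PS within 5-Htt+/-, with adjusted p = 0.0305 (Tsc22d3), 0.0269 (Gadd45g) and 0.0365 (Sdc4). The highest values when 1 library was left out were 0.122 and 0.361, both without 5-Htt+/- C replicate 3, and 0.118, without 5-Htt+/- C replicate 7.

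Fkbp5, a co-chaperone that lowers the affinity of the glucocorticoid receptor for its hormone and a common reporter of receptor activity, had smaller estimates. It measured 53.9, 60.8 and 67.2 CPM in 5-Htt+/- C, 46.3, 53.6 and 58.9 CPM in 5-Htt+/- PS, 47.6, 55.8 and 64.1 CPM in 5-Htt+/+ C and 48.6, 55.4 and 63.5 CPM in 5-Htt+/+ PS. Its difference in 5-Htt+/- was -0.18 (SE 0.05, adjusted p = 0.128) and its interaction -0.19 (95% interval -0.35 to -0.04, adjusted p = 0.876), so that it passed neither test.

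**Figure D1:**
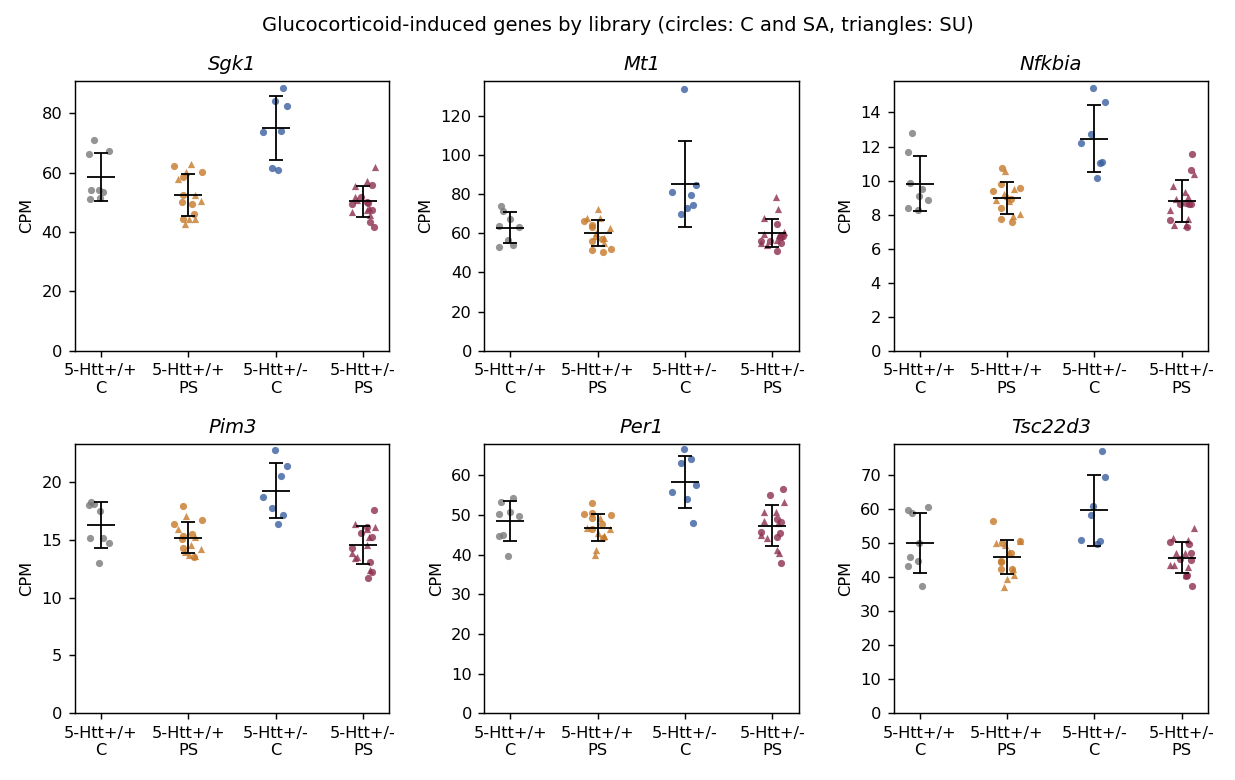
CPM (vertical axes, each from 0) of Sgk1, Mt1, Nfkbia, Pim3, Per1 and Tsc22d3 in each of the 48 libraries, by the 4 groups. Circles are C and SA libraries, triangles SU libraries, and the bars give the mean ± SD. The 5-Htt+/- C group has the highest median in each panel, as for Sgk1 with 74.0 CPM against 49.9 to 54.2 CPM in the other groups, and its libraries overlap with those of the others.

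The receptors and hormones of the stress axis had estimates near those of all genes. Of the 17 genes of the corticosteroid receptor and CRH list, 14 passed the filter on low counts and had a median interaction of 0.0138, with 7 higher and 7 lower. The glucocorticoid receptor gene Nr3c1 had medians of 68.2 CPM in 5-Htt+/- C, 78.1 CPM in 5-Htt+/- PS, 76.6 CPM in 5-Htt+/+ C and 79.7 CPM in 5-Htt+/+ PS, and an interaction of 0.12 (95% interval -0.08 to 0.32). The mineralocorticoid receptor gene Nr3c2 was near 150 CPM throughout, at group medians of 140, 154, 149 and 151 CPM in the same order, with an interaction of 0.03 (95% interval -0.13 to 0.18). Crh, the releasing hormone, had group medians of 0.749 to 0.932 CPM and an interaction of 0.16 (95% interval -0.36 to 0.68). Hsd11b2, which inactivates corticosterone, was at most 0.332 CPM in any library and its interaction of 1.58 (95% interval 0.50 to 2.67, adjusted p = 0.876) rests on a few reads per library.

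Genes of the serotonin system had no member past any threshold in the interaction. Of the 22 members of that list, 0 had an unadjusted p under 0.05, and their median was 0.0644. Tph2, the neuronal enzyme of serotonin synthesis, whose cell bodies lie in the raphe, was low (group medians of 1.14 to 1.38 CPM), with an interaction of -0.39 (95% interval -0.82 to 0.05). The serotonin receptor genes Htr1a and Htr1b had interactions of 0.07 (95% interval -0.11 to 0.24) and 0.21 (95% interval -0.06 to 0.48). Maoa, the enzyme that degrades serotonin, had one of 0.13 (95% interval -0.03 to 0.29). Bdnf, a neurotrophin often measured after early stress, had group medians of 29.0 to 31.5 CPM and an interaction of 0.12 (95% interval -0.12 to 0.36). The 23 tested genes around the transporter locus on chromosome 11 had a median interaction of 0.00536, with 0 members at an unadjusted p under 0.05.

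The difference between the labels, which is the other way to read the interaction, was called for few genes in either arm. In C libraries 4 genes passed (Slc6a4, Trpv1, 1700128E19Rik and Shpk), or 2 without any 1 of 5-Htt+/- C replicate 1, 5-Htt+/+ C replicate 4 and 5-Htt+/+ C replicate 5. In PS libraries 5 passed (Slc6a4, Trpv1, 1700128E19Rik, Gm12343 and Xaf1). All were higher in libraries labelled 5-Htt+/-, and 3 were shared. Gm12343 (chr11:77008914-77009873), annotated as antisense, lies within Slc6a4, so that their reads cannot be told apart without strand. Shpk and Xaf1 lie on chromosome 11 as well. Trpv1 (chr11:73234292-73261242), a cation channel gene on the chromosome of Slc6a4, was higher by 2.24 in log2 in C and by 2.33 in PS, with an interaction of 0.10 (95% interval -0.64 to 0.83). At an unadjusted p under 0.05 there were 2375 genes in C and 869 in PS.

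Myelin genes were also mostly on one side. Of 20 oligodendrocyte and myelin markers, 19 had a lower interaction estimate (median -0.221) and 12 had an unadjusted p under 0.05, all lower, beside 2.92% of all genes. This number was 4 without 5-Htt+/- C replicate 3 and 1 once the 6 libraries lowest on the first component were removed, and 0 passed the adjusted threshold. The summed level of the markers was 3050 to 5130 CPM in 5-Htt+/- C (median 3820), 2710 to 3950 CPM in 5-Htt+/- PS (median 3380), 2730 to 3870 CPM in 5-Htt+/+ C (median 3230) and 2740 to 4170 CPM in 5-Htt+/+ PS (median 3390). The groups overlapped, with the highest library in 5-Htt+/- C. The median PS effect of the list was -0.218 in 5-Htt+/- and 0.0134 in 5-Htt+/+.

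Cldn11, the claudin of myelin tight junctions, measured 57.5, 73.6 and 114 CPM in 5-Htt+/- C, 44.7, 54.4 and 73.4 CPM in 5-Htt+/- PS, 43.2, 59.7 and 65.5 CPM in 5-Htt+/+ C and 47.5, 57.3 and 67.0 CPM in 5-Htt+/+ PS. It fell by 0.44 in 5-Htt+/- (SE 0.09, adjusted p = 0.0305, 0.361 without 5-Htt+/- C replicate 3), with an interaction of -0.45 (95% interval -0.71 to -0.20). Mag, an adhesion molecule of the innermost myelin layer, fell by 0.44 (SE 0.10, adjusted p = 0.0375, 0.384 without the same library). Its interaction of -0.41 (95% interval -0.68 to -0.14) became -0.251 without that library. Mbp, a main structural protein of compact myelin, had medians of 1180 CPM in 5-Htt+/- C, 1010 CPM in 5-Htt+/- PS, 1050 CPM in 5-Htt+/+ C and 1010 CPM in 5-Htt+/+ PS and did not pass in 5-Htt+/- (adjusted p = 0.0789).

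Genes of earlier stages of the lineage had mixed values. Sox10, the transcription factor of the oligodendrocyte lineage, had an interaction of -0.41 (95% interval -0.64 to -0.19, adjusted p = 0.816). Cspg4, which marks precursors and also pericytes, measured 13.5, 15.6 and 17.1 CPM in 5-Htt+/- C and 9.10, 12.6 and 14.5 CPM in 5-Htt+/- PS and fell by 0.32 (SE 0.07, adjusted p = 0.0400, 0.194 without 5-Htt+/- C replicate 3). The 12 precursor markers as a list had a median interaction of -0.057 and summed to 618 to 793 CPM in 5-Htt+/- C and 616 to 770 CPM in 5-Htt+/- PS.

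**Figure D2:**
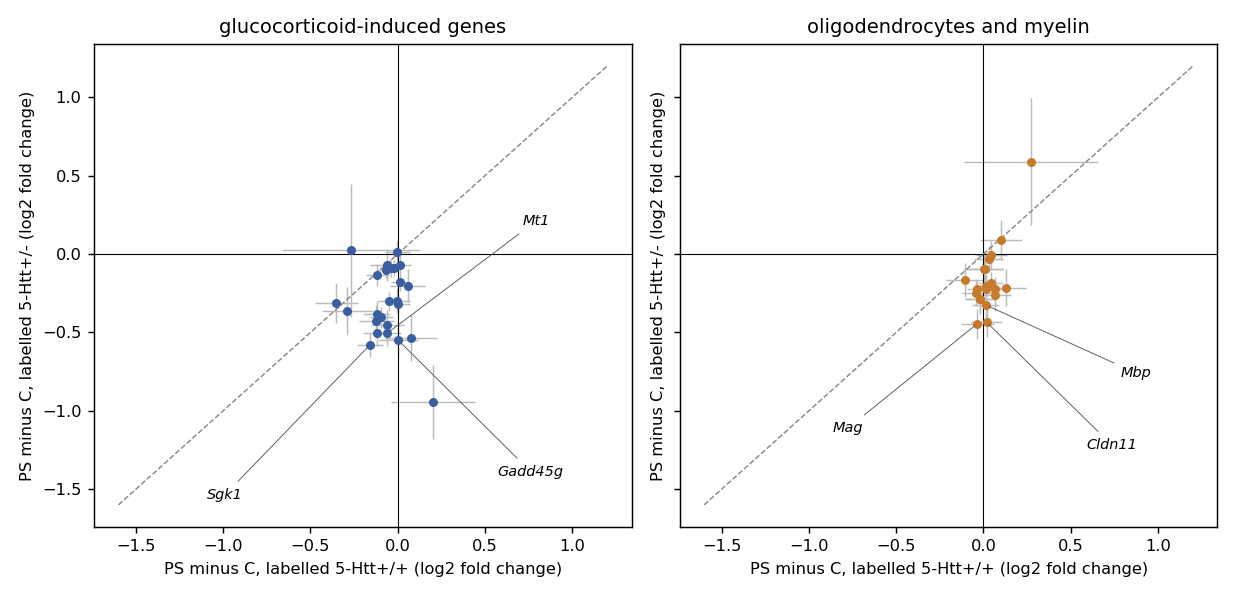
Log2 PS minus C difference in 5-Htt+/+ (horizontal axis) and in 5-Htt+/- (vertical axis) for the 25 glucocorticoid-induced genes and the 20 myelin genes, with bars of ± SE. Most points lie below the dashed line of equal effects, Sgk1 at -0.16 and -0.58 and Cldn11 at 0.02 and -0.44.

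Transcripts of the mitochondrial genome had estimates on the other side. All 13 protein-coding members had a higher interaction estimate, with a median of 0.16, and a median PS effect of 0.167 in 5-Htt+/- and 0.00762 in 5-Htt+/+. The median interaction was 0.106 without 5-Htt+/- C replicate 3 and 0.0461 once the 6 libraries lowest on the first component were removed. The transcripts summed to 30700 to 49000 CPM in 5-Htt+/- C (median 41000), against medians of 48000 CPM in 5-Htt+/- PS, 46800 CPM in 5-Htt+/+ C and 47800 CPM in 5-Htt+/+ PS. mt-Co2, a subunit of cytochrome c oxidase, measured 4050, 4270 and 4870 CPM in 5-Htt+/- C and 4270, 4940 and 5500 CPM in 5-Htt+/- PS, with 10 of 17 PS libraries above the highest C library and an interaction of 0.16 (95% interval 0.03 to 0.29). None of these genes passed the adjusted threshold in 5-Htt+/- either (mt-Co2, adjusted p = 0.112). The nuclear genes of oxidative phosphorylation had a median interaction of -0.0464 over 34 members.

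Ependymal markers, from the ciliated cells that line the ventricles, had lower estimates in all 11 members, with a median of -0.365. They summed to 48.0 to 68.0 CPM in 5-Htt+/- C (median 60.3), 41.3 to 63.6 CPM in 5-Htt+/- PS (median 48.1), 41.9 to 56.8 CPM in 5-Htt+/+ C (median 51.5) and 39.5 to 66.5 CPM in 5-Htt+/+ PS (median 50.9). The median PS effect of the list was -0.256 in 5-Htt+/- and 0.156 in 5-Htt+/+. An unadjusted p under 0.05 in the interaction was reached by 4 of the 11 members, beside 2.92% of all genes lower. In libraries without Snord116 reads 0 members reached it, and the median interaction was -0.0687. Ccdc153 measured 1.02, 2 and 3.19 CPM in 5-Htt+/- C and 0.419, 1.03 and 2.20 CPM in 5-Htt+/- PS, with an interaction of -1.04 (95% interval -1.69 to -0.40, adjusted p = 0.876). The wider list of 37 motile cilium genes had a median of -0.081. Its members Cfap45 and Mapk15 had interactions of -0.03 (95% interval -0.28 to 0.22) and -0.15 (95% interval -0.80 to 0.51). With SA as the PS group these were -0.29 and -0.79, and with SU they were 0.23 and 0.50. The list's median was -0.218 with SA and 0.0173 with SU. How much ependyma or choroid plexus came along with the tissue was not recorded in the labels and its part in these values was not tested.

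Activity-dependent immediate early genes had a median interaction of -0.196 over 21 members, 17 of them lower (-0.32 with SA and -0.0439 with SU offspring), and a median PS effect of -0.277 in 5-Htt+/- and -0.0311 in 5-Htt+/+. The spread between libraries of 1 group was wide. Nr4a1, an orphan nuclear receptor induced by neuronal activity, measured 30.3, 44.8 and 87.1 CPM in 5-Htt+/- C and 25.6, 39.6 and 55.4 CPM in 5-Htt+/- PS, with an interaction of -0.42 (95% interval -0.82 to -0.02). Homer1, whose short activity-induced form and long forms are not separated in gene-wise counts, was on the other side at 0.33 (95% interval 0.04 to 0.63).

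The aminoacyl-tRNA synthetases and amino acid response genes had a median interaction of -0.0993 with 19 of 24 lower, and a median PS effect of -0.141 in 5-Htt+/- and -0.0348 in 5-Htt+/+. Psat1, an enzyme of serine synthesis, measured 65.7, 83.5 and 94.2 CPM in 5-Htt+/- C and 60.2, 68.9 and 76.8 CPM in 5-Htt+/- PS, with an interaction of -0.19 (95% interval -0.33 to -0.04). The Notch list had a median of -0.117 over 21 members. Lfng, a glycosyltransferase that modifies Notch receptors, measured 8.03, 10.5 and 12.4 CPM in 5-Htt+/- C and 6.11, 7.54 and 9.90 CPM in 5-Htt+/- PS, and fell by 0.44 in 5-Htt+/- (SE 0.09, adjusted p = 0.0215, 0.0935 without 5-Htt+/- C replicate 3). Its interaction was -0.32 (95% interval -0.57 to -0.07).

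Among transport and metabolism genes, Slc2a1, the glucose transporter of the blood-brain barrier, measured 50.4, 65.7 and 88.0 CPM in 5-Htt+/- C and 38, 49.0 and 63.8 CPM in 5-Htt+/- PS, against medians of 54.3 and 47.9 CPM in 5-Htt+/+ C and PS. It fell by 0.48 in 5-Htt+/- (SE 0.09, adjusted p = 0.0124, 0.122 without 5-Htt+/- C replicate 3), with an interaction of -0.33 (95% interval -0.58 to -0.07). The antisense gene Gm12868 overlaps its 3' end, so that their reads cannot be told apart without strand. Mfsd2a, the lysophospholipid transporter of brain endothelium, had medians of 16.8, 12.6, 13.7 and 13.0 CPM in 5-Htt+/- C, 5-Htt+/- PS, 5-Htt+/+ C and 5-Htt+/+ PS and fell by 0.37 in 5-Htt+/- (SE 0.07, adjusted p = 0.0203, 0.085 without 5-Htt+/- C replicate 1), with an interaction of -0.31 (95% interval -0.51 to -0.10). The 14 endothelial markers together had a median interaction of 0.0109 and overlapping sums of 305 to 374 CPM in 5-Htt+/- C and 322 to 382 CPM in 5-Htt+/- PS. Ppp1r3g, a subunit that directs a phosphatase to glycogen, fell by 0.54 (SE 0.12, adjusted p = 0.0375, 0.275 without 5-Htt+/- C replicate 3), with an interaction of -0.38 (95% interval -0.71 to -0.05).

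**Figure D3:**
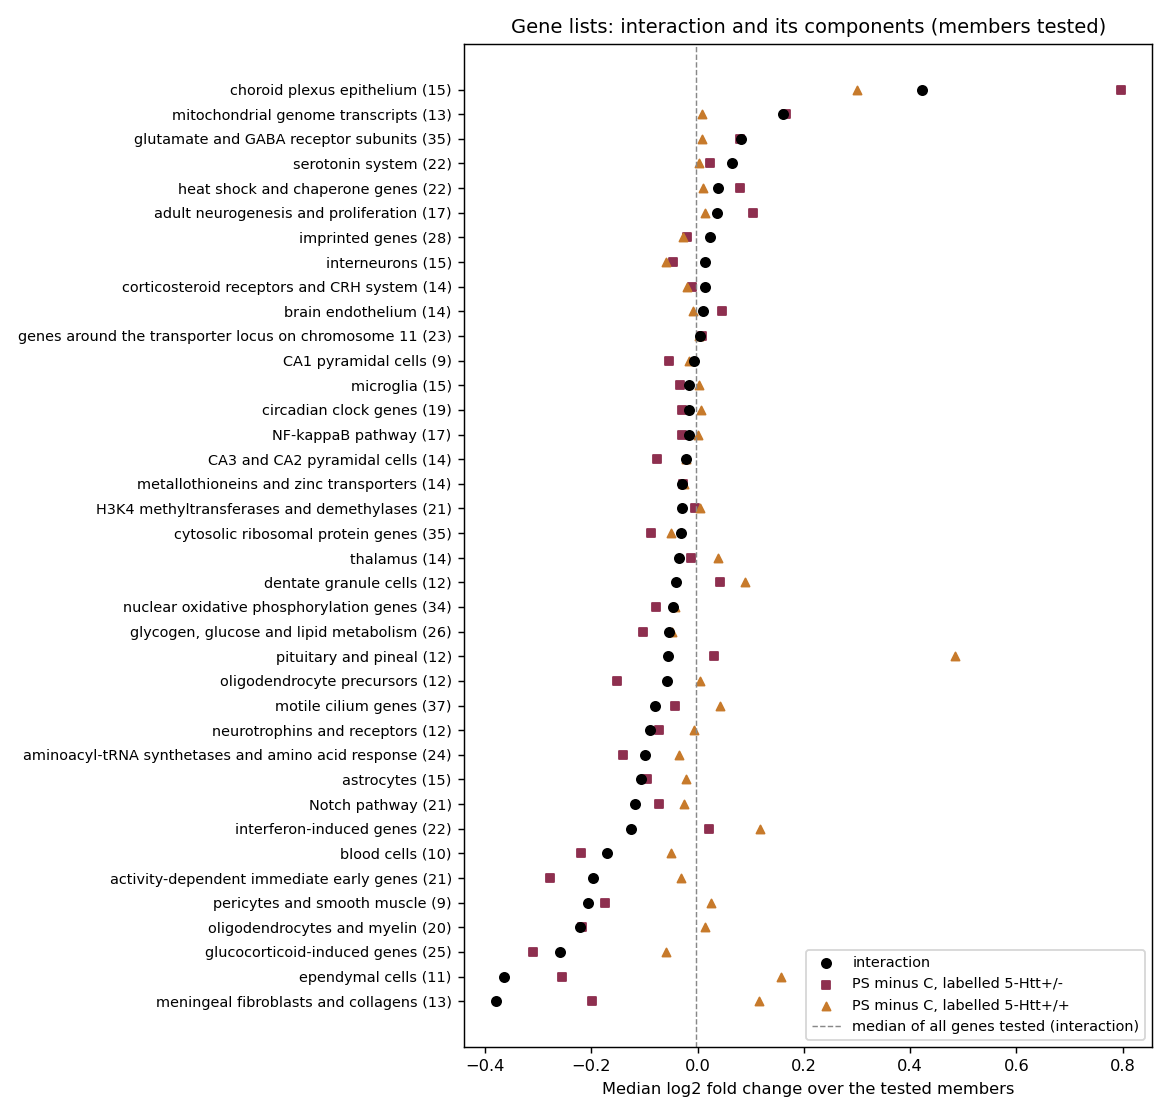
Median log2 difference (horizontal axis) of each of the 38 gene lists (vertical axis) for the interaction, for PS within 5-Htt+/- and for PS within 5-Htt+/+. The glucocorticoid list lies at -0.259, -0.31 and -0.0594, and the mitochondrial transcripts at 0.16, 0.167 and 0.00762.

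Pericyte and smooth muscle markers had a median interaction of -0.206, with 7 of 9 lower. Of these, 2 had an unadjusted p under 0.05, beside 2.92% of all genes, and 1 of the 2 was Cspg4, also a precursor marker. Blood cell markers had a median interaction of -0.171 (6 of 10 lower). Astrocyte markers had a median interaction of -0.107, microglia markers of -0.0154, interneuron markers of 0.0143, dentate granule cell markers of -0.0404, CA1 markers of -0.00699 and CA3 and CA2 markers of -0.0227. No defining marker of these lists was at 0 in every library. Meningeal markers had a median of -0.38 and sums of 65.7 to 209 CPM in 5-Htt+/- C and 43.8 to 168 CPM in 5-Htt+/- PS, and choroid plexus markers had a median of 0.422 that ran from -0.076 without 5-Htt+/+ C replicate 4 to 1.57 without 5-Htt+/- C replicate 5. Neither list had a member at an unadjusted p under 0.05. With a choroid plexus score as a term, 14 glucocorticoid genes had an unadjusted p under 0.05 in the interaction, while within 5-Htt+/- the calls were 6 in that list and 14 among all genes, against 9 and 33 without the term. The part of the other cell types in the differences above was not tested.

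The genes with the smallest p-values in the interaction were mostly not members of these lists. Ccno (chr13:112987802-112990778), which encodes a cyclin-like protein of multiciliated cells, was the lowest by p, with 1.18, 1.38 and 1.56 CPM in 5-Htt+/- C, 0.805, 0.991 and 1.53 CPM in 5-Htt+/- PS, 0.798, 1.06 and 1.37 CPM in 5-Htt+/+ C and 0.808, 1.24 and 1.69 CPM in 5-Htt+/+ PS. Its interaction was -0.67 (95% interval -0.97 to -0.38, adjusted p = 0.695), made up of -0.44 (SE 0.10) in 5-Htt+/- and 0.24 (SE 0.10) in 5-Htt+/+. It was -0.68 with SA and -0.67 with SU offspring. Neither PS effect passed (adjusted p = 0.0656 in 5-Htt+/- and 1 in 5-Htt+/+).

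Fabp7, a fatty acid binding protein of radial glia and astrocytes, had estimates of opposite sign in the 2 labels. It measured 5.86, 7.19 and 7.73 CPM in 5-Htt+/- C, 7.15, 8.59 and 11.3 CPM in 5-Htt+/- PS, 7.31, 8.61 and 12.7 CPM in 5-Htt+/+ C and 5.46, 7.76 and 10.6 CPM in 5-Htt+/+ PS. In 5-Htt+/-, 12 of 17 PS libraries lay above the highest C library. The interaction was 0.55 (95% interval 0.29 to 0.81, adjusted p = 0.695), from 0.33 (SE 0.09) in 5-Htt+/- and -0.22 (SE 0.09) in 5-Htt+/+. Gm16025, a gene model without a known function, did so too, at 10.7, 12.2, 12.4 and 11.4 CPM (medians of 5-Htt+/- C, 5-Htt+/- PS, 5-Htt+/+ C and 5-Htt+/+ PS), with an interaction of 0.28 (95% interval 0.15 to 0.42). None of the PS effects of Fabp7 and Gm16025 passed the adjusted threshold.

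The 3 genes that rose in PS within 5-Htt+/- were RP23-185B22.1, Gm13335 and 1 of 2 gene models named l7Rn6. RP23-185B22.1 (chr8:60719291-60725806, lincRNA) measured 0.0976, 0.25 and 0.43 CPM in 5-Htt+/- C, 0.326, 0.596 and 0.991 CPM in 5-Htt+/- PS, 0.266, 0.436 and 0.625 CPM in 5-Htt+/+ C and 0.384, 0.587 and 0.902 CPM in 5-Htt+/+ PS. It rose by 1.30 in log2 in 5-Htt+/- (SE 0.22, adjusted p = 0.0029), with 15 of 17 PS libraries above the highest C library, and its interaction was 0.82 (95% interval 0.23 to 1.42). In 5-Htt+/+ the difference had the same sign, 0.47 (SE 0.19, adjusted p = 1). Gm13335 (chr2:20420570-20432934), annotated as antisense, measured 0, 0.0325 and 0.152 CPM in 5-Htt+/- C and 0.0458, 0.209 and 0.466 CPM in 5-Htt+/- PS and rose by 2.56 (SE 0.49, adjusted p = 0.0155), with an interaction of 2.56 (95% interval 1.34 to 3.77, adjusted p = 0.695), and of 3.26 without 5-Htt+/- C replicate 3. Reads of an antisense gene and its partner cannot be told apart without strand. At these levels a library holds few reads of either gene.

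The 7 genes called in 5-Htt+/+ were of another kind. All 7 (4930435N07Rik, Gm44797, Gm44798, Gm44799, Gm44800, Gm44801 and n-R5s95) lie within the gene body of Fam155a (chr8:9205902-9771161, - strand). Their summed level was 0.152, 1.95 and 13.9 CPM in 5-Htt+/+ C (lowest, median and highest), 0.128, 0.342 and 0.439 CPM in 5-Htt+/+ PS, 0.293, 0.38 and 6.16 CPM in 5-Htt+/- C and 0.159, 0.43 and 1.32 CPM in 5-Htt+/- PS. It passed 1 CPM in 6 of 8, 0 of 16, 2 of 7 and 1 of 17 libraries of these groups. The 7 features do not overlap each other, but all overlap Fam155a. 4930435N07Rik lies on the + strand, so that its reads cannot be told apart from those of Fam155a without strand. The others lie on the - strand like Fam155a, and strand would not separate their reads from those of Fam155a. Fam155a itself was at 75.6 CPM or above, with an interaction of 0.03 (95% interval -0.09 to 0.14). The strongest call, 4930435N07Rik, fell by 3.63 in 5-Htt+/+ (SE 0.55, adjusted p = 0.000786), with an interaction of 3.89 (95% interval 1.89 to 5.88, adjusted p = 0.695). The intervals of 5 of the 7 interactions included 0. The number of calls in 5-Htt+/+ was 2 without 5-Htt+/+ C replicate 4 and 1 without 5-Htt+/+ C replicate 6.

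**Figure D4:**
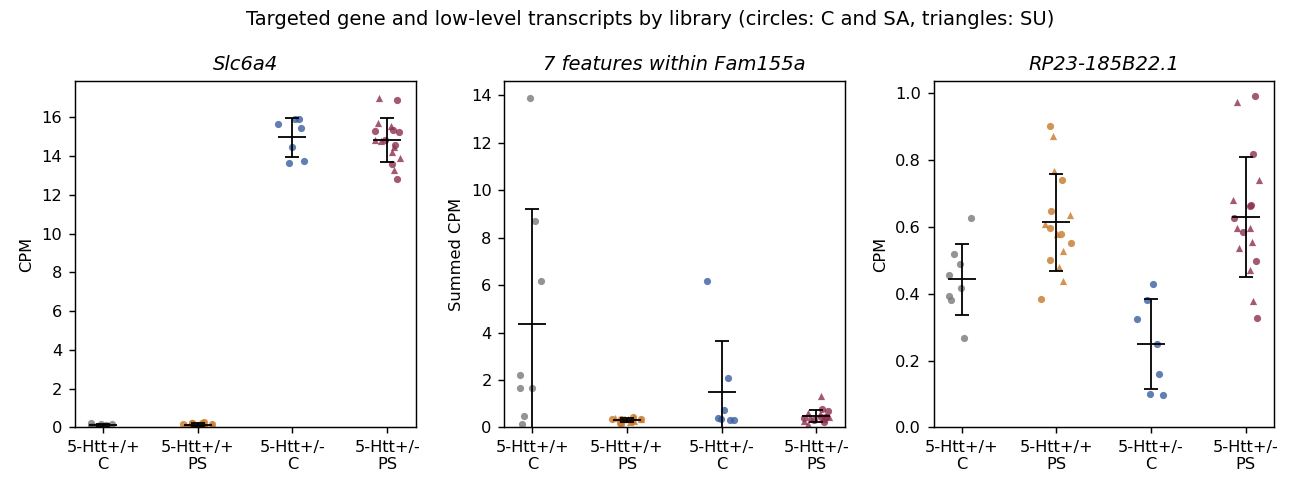
CPM per library (vertical axes) by group for Slc6a4, for the sum of the 7 features within Fam155a and for RP23-185B22.1, with mean ± SD, the lower bar ending at 0. The 7 features pass 1 CPM in 6 of 8 5-Htt+/+ C libraries and in 0 of 16 5-Htt+/+ PS libraries.

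Pooling SA and SU was examined with the difference between their 2 interactions, in which the controls cancel. With edgeR's quasi-likelihood test 0 genes passed, and 1055 genes (3.38%) had an unadjusted p under 0.05. Over the glucocorticoid list the median interaction was -0.299 with SA and -0.202 with SU, over the myelin list -0.214 and -0.242, and over the mitochondrial transcripts 0.103 and 0.222. Within 5-Htt+/-, 8 of the 33 genes passed with SA alone and 5 with SU alone, contrasts of the same fit with fewer PS libraries. Sgk1 passed in both (adjusted p = 0.000348 and 0.00471).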

How the data were processed

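Hippocampal RNA of 48 female mice was sequenced. The authors deposited raw read counts per gene, made with STAR and HTSeq on GRCm38.p5 according to the submitters' processing notes, which also name DESeq2; the methods of the study name Salmon instead of HTSeq, and tool versions and the strand setting are not given in the sources used. Gene names, types and coordinates were taken from the same table. The filter on low counts asked for 5 reads or more in 3 libraries or more, which 31208 of 48440 genes passed. The counts were fitted with edgeR 4.0.16 (R 4.3.3, limma 3.58.1) by the quasi-likelihood method, with upper-quartile scaling and a mean for each of 6 groups (genotype label by C, SA and SU), with Benjamini-Hochberg adjustment across the genes that passed the filter. SA and SU were weighted equally. The scripts were tested on simulated counts. Total counts of 16488405 to 38213754 per library set the precision, and genes below about 1 CPM rest on few reads.

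The 38 gene lists and the contrast were chosen with earlier results of these data known. Genes are named by rule, namely Slc6a4, genes called in the interaction, the 15 of smallest p at 1 CPM or more and the 5 of smallest p at any level, up to 3 of smallest p per list, up to 10 called per PS effect, and a fixed set of stress and serotonin genes; of those named, the text describes a selection, and other called genes were added after their values were seen. Alternatives were edgeR's likelihood ratio test, DESeq2 1.42.0, other scalings and filters, 4 group means, the replicate number as a block, added terms, SA or SU alone, and each library left out. The alternatives on the first component (6 libraries) and on Snord116 reads (present at 100 or more) were chosen after seeing the data. No pair of libraries of a group was alike within sampling noise (lowest chi-square per gene 2.42 over 169 pairs).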

Additional observations from a re-analysis of the deposited data

Results flagged for a closer look

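Of 132 groups of 7 to 9 libraries tested over 22 measures, 14 held a library far from the others by Dixon's criterion. For normally distributed values chance gives about 1 in 20 groups. Several measures lie near 0 CPM and the measures share libraries, so that the count of 14 cannot be compared with that rate. In 5-Htt+/- C, replicate 3 stood apart in Mt1 (134 CPM, next 84.6), Gadd45g (18.1 CPM, next 9.9), Cldn11 (114 CPM, next 80.9), Mag (128 CPM, next 87.0) and Gm13335 (0.152 CPM, next 0.0477). Without this library the interaction estimates were -0.302 for Mt1, -0.364 for Gadd45g, -0.329 for Cldn11, -0.251 for Mag and 3.26 for Gm13335.

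Prl, a pituitary hormone gene, was high in single libraries of 5 groups, at 0.57 CPM in 5-Htt+/+ C replicate 8, 45.0 CPM in 5-Htt+/+ SA replicate 8, 6.06 CPM in 5-Htt+/+ SU replicate 5, 8.04 CPM in 5-Htt+/- C replicate 5 and 6.27 CPM in 5-Htt+/- SU replicate 8. Its interaction estimate (-6.93 in the main fit and -1.3 with DESeq2) therefore rests on single libraries.

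The remaining libraries that stood apart were 5-Htt+/- SU replicate 9 in Fkbp5 (46.3 CPM, next 52.0), 5-Htt+/- SA replicate 7 in Ccdc153 (0.419 CPM, next 0.961), and 5-Htt+/- C replicate 5 (6.16 CPM, next 2.08) and 5-Htt+/- SU replicate 2 (1.32 CPM, next 0.614) in the sum of the 7 features within Fam155a.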

How the results depend on the processing

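The interaction had 0 genes past the threshold under all 16 alternatives and without each of the 48 libraries, with a smallest adjusted p of 0.0664 with the replicate block. The number of genes called for PS in 5-Htt+/- (33) was 118 with the likelihood ratio test, 286 with DESeq2, 56 with a stricter filter, 14 with a choroid plexus term, 10 with the first component as a term, 3 when the 6 libraries lowest on it were removed, 764 in libraries with Snord116 reads, 0 in those without them, 8 with SA and 5 with SU, and ran from 9 to 1163 when each library was left out. For PS in 5-Htt+/+ (7) it was 0 with a stricter filter, 1 and 0 in libraries with and without Snord116 reads, 0 with SA and 1 with SU, and 1 to 7 when each library was left out. The genotype label difference in controls (4) had 7 genes with DESeq2, 2 with those 6 libraries removed, 1 in either Snord116 class, and 2 to 5 when each library was left out. In PS libraries (5) it had 1 without Snord116 reads, 3 with SA and 3 with SU, and 4 to 6 when each library was left out. The cause of these changes was not tested. The fits within each Snord116 class use fewer libraries, and the SA and SU values are contrasts of the main fit with fewer PS libraries.

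Replicate numbers were not treated as pairs in the main fit. Over 115 pairs of the same number the median correlation was 0.0589 (lowest -0.677, 53 over 0.1), against 0.00104 over 844 pairs of different numbers. Of 48 libraries, 5 correlated best with their own number. With the replicate block the calls were 21 in 5-Htt+/- (17 of the 33) and 1 in 5-Htt+/+.

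Interaction estimates changed sign for Slc6a4 (0.202 without Snord116 reads, 0.0648 with SU), Gh (0.607 with DESeq2), Foxj1 (0.00975 without Snord116 reads), Htr1a (-0.0336 with SA), Crh (-0.259 without Snord116 reads), Mapk15 (0.587 without Snord116 reads, 0.501 with SU) and Otop2 (0.245 with Snord116 reads). For Nr3c2 they were -0.00981 with the 6 libraries removed and -0.051 with Snord116 reads (-0.0165 to 0.077 when each library was left out), for Cfap45 0.00706, 0.364 without Snord116 reads and 0.227 with SU (-0.0797 to 0.0358), and for Kif14 -0.102, -0.274 and -0.0149 (-0.0368 to 0.0851). In libraries with Snord116 reads Gm44798 was at -0.267, Gm44799 at -0.0656 and n-R5s95 at -0.426. The main fit had Gm44798 at 1.64, Gm44799 at 1.22 and n-R5s95 at 0.701. It had Gh at -4.6, Foxj1 at -0.51, Otop2 at -0.148 and Kif14 at 0.0254.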
